A study of Arabidopsis thaliana with 12 samples.

Results

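The comparison described here is the response of a 35S:HIN1 line of Arabidopsis thaliana to low water potential: 3 libraries of stressed seedlings against 3 libraries of control seedlings, 6 of the 12 libraries in the series. The labels chose the libraries, and no measured value did. The line is in the accession Col-0 and carries a stable transgene in which the cauliflower mosaic virus 35S promoter, active in most plant tissues, drives HIN1, the gene AT3G11290, which encodes a protein with a Myb/SANT-like DNA-binding domain. All seedlings grew for 7 days at 23 °C in continuous light on medium without sugar and then moved either to fresh control agar at -0.25 MPa or to agar made osmotically stronger with high molecular weight polyethylene glycol, at -0.7 MPa, and whole seedlings were harvested 96 h later. Each group was sampled in 3 experiments, with 1 library from each. The other 6 libraries are untransformed wild type (WT) under the same 2 treatments, which per the design text also serve another series. Only 1 line stands for the genotype, and the transgene and the endogenous gene were counted together.

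Seedlings on such agar lose water until their tissues come to balance with the medium, and they accumulate the hormone abscisic acid (ABA) over hours to days. ABA binds soluble receptors of the PYR/PYL/RCAR family, the bound receptors inhibit clade A protein phosphatases of type 2C (PP2Cs), and this frees SnRK2 kinases to phosphorylate bZIP transcription factors that bind ABA-responsive elements (ABREs) in promoters. Among the known outputs are late embryogenesis abundant proteins, proline synthesis, sugar storage and changes in cell walls and cuticle.

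The 6 libraries held 60.94 M to 64.78 M gene reads. Stressed libraries had at least 1 read in 25078 to 25266 genes and control libraries in 24426 to 24507. Levels are given as CPM, the counts of a gene per 1e6 reads, scaled to effective library size, in the order of the replicate numbers 1, 2 and 3, which were not used to pair libraries. A gene is said to have risen or fallen where edgeR's quasi-likelihood test, fitted across all 22924 genes tested, gave a Benjamini-Hochberg adjusted p below 0.05. The ± after a log2 fold change gives its approximate standard error. By this rule 6219 genes changed (27.1%), 3362 upward (14.7%) and 2857 downward (12.5%). At 2-fold or more 1519 genes changed (6.63%), of which 825 rose (3.6%) and 694 fell (3.03%), and the median log2 fold change of all genes was 0.01. Stressed and control libraries of the line did not overlap for 10403 genes (45.4%), so a lack of overlap was common. Genes named by fold change or by difference in mean CPM, among them PYL6, HAI2, HSP23.6, HSP17.6C and LTP4, had to meet this condition. Chloroplast-encoded reads made up 0.1412% to 0.7504% of gene reads in control and 0.1867% to 0.4785% in stressed libraries (two-sided exact permutation test, p = 1, where 3 against 3 cannot go below 0.1), and the share was highest in library 3 of each group, WT included. Stress library 3 stood apart from the other stressed libraries on the second principal component, at 32.8 against -23.6 and -12.9. It held the highest value for 502 of the 825 genes that rose 2-fold or more (60.8%), so the list counts below are followed, where they moved, by their range over the 6 fits that each leave out 1 library of the line (the leave-one-out fits).

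HIN1 itself stood at 250, 297 and 260 CPM in the control libraries of the line and at 316, 344 and 390 CPM in its stressed libraries. The 2 groups did not overlap. In WT the gene stood at 24.5, 22.7 and 21.6 CPM under control and at 23.6, 24.5 and 22.8 CPM under stress, all far below any library of the line. Within the line HIN1 rose by a log2 fold change of 0.38 ± 0.09 (n = 3 per group, edgeR's adjusted p = 0.00732), from a mean of 269 ± 25.2 CPM (SD) to 350 ± 37.5 CPM. The WT change was 0.04 (adjusted p = 0.751) and the difference of the responses was 0.34 ± 0.12 (adjusted p = 0.496). Without the third libraries the change in the line was 0.27 with an adjusted p of 0.0857. HIN1 lies on the minus strand of chromosome 3 at 3535561 to 3537904 (TAIR10.1).

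Genes of the dehydration response rose in the line as a group. Of 45 members of the ABA and dehydration list, 28 rose and 3 fell, against 14.7% and 12.5% of all genes, and in the leave-one-out fits 23 to 28 rose, fewest without stress library 3, and 2 or 3 fell. Their median log2 fold change was 0.76. COR15A, which encodes a chloroplast protein of the late embryogenesis abundant type, stood at 3.57, 3.58 and 5.15 CPM in control and at 51.1, 45 and 68.4 CPM in stressed seedlings. RD20, which encodes a calcium-binding caleosin of lipid bodies, stood at 3.32, 2.21 and 3.68 CPM in control and at 28.5, 25.9 and 32.7 CPM under stress. RD29A, a hydrophilic protein gene long used as a stress reporter, stood at 9.19, 11.5 and 13.6 CPM in control and at 54.5, 35.9 and 55.1 CPM under stress. For each of the 3 genes every stressed library lay above every control library. The log2 fold changes were 3.74 ± 0.19 for COR15A (edgeR's adjusted p = 6.11e-07), 3.24 ± 0.20 for RD20 (1.44e-06) and 2.08 ± 0.19 for RD29A (1.59e-05).

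Other members with the same direction were KIN1, a small cold- and ABA-inducible protein gene, at 3.25 ± 0.30, COR15B at 2.72 ± 0.24, and HB7, a homeodomain-leucine zipper factor gene, at 1.77 ± 0.14. RAB18, a dehydrin gene, rose by 2.38 ± 0.46 with a wide stressed range of 30.3, 25 and 67.7 CPM. EM1, a late embryogenesis gene best known from seeds, was low throughout, at 0 to 0.101 CPM in control and 0.942 to 1.74 CPM under stress, and rose by 4.51 ± 0.62, or by 5.23 without control library 3. AFP1 and AFP3, which encode ABI5-binding proteins that damp ABA signalling, rose by 1.31 ± 0.22 and 1.23 ± 0.13. The members that fell were ERD6, a vacuolar sugar transporter gene, by 1.09 on the log2 scale, ERD4, by 0.33, and PUB22, a ubiquitin ligase gene whose call did not hold in every leave-one-out fit. ERD6 stood at 115, 129 and 140 CPM in control and at 50.2, 60.5 and 69.7 CPM under stress. The rise of RD29B, the neighbour of RD29A, was 2.86 ± 0.75 (adjusted p = 0.015) with stressed values of 11.9, 7.95 and 50.9 CPM, and its call was lost without stress library 3.

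The core of ABA perception moved in opposite directions at successive steps, with receptors lower and phosphatases higher. Of 11 receptor genes tested, 8 fell and 1 rose (8 or 9 and 0 or 1 in the leave-one-out fits), with a median log2 fold change of -0.87. PYL4 stood at 116, 137 and 135 CPM in control and at 28.2, 31.6 and 28.9 CPM under stress, a log2 fold change of -2.13 ± 0.13 (edgeR's adjusted p = 1.20e-06). PYL6 went from 11.2, 17.2 and 16 CPM to 0.769, 1.09 and 0.991 CPM, a log2 fold change of -3.96 ± 0.32 (adjusted p = 8.08e-06). No stressed library of either gene reached the lowest control library. PYL5 fell by 2.01 on the log2 scale, PYL12 by 2.51 (3.20 without stress library 3) from a level that never passed 0.185 CPM, and PYR1, PYL1, PYL2 and PYL8 by 0.83, 0.91, 0.87 and 0.84. The exception was PYL7, which stood at 15.9, 13.7 and 16.9 CPM in control and 20, 20 and 27.1 CPM under stress, and its call was lost when control library 2 was left out.

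Of 9 clade A PP2C genes 7 rose and none fell, with a median of 0.98. None fell at an unadjusted p below 0.05 or by DESeq2 either. HAI2 stood at 0.458, 0.318 and 0.789 CPM in control and at 13.5, 9.31 and 12 CPM under stress, a log2 fold change of 4.48 ± 0.27 (edgeR's adjusted p = 1.20e-06). HAI1 followed at 2.46 ± 0.22, from 6.01, 5.33 and 7.62 CPM to 35.6, 27.9 and 41.1 CPM. The 2 groups of libraries were apart for both genes. ABI2, ABI1 and PP2CA rose by 1.20 ± 0.13, 1.03 ± 0.21 and 0.98 ± 0.10, and HAB1 and HAB2 by 0.61 ± 0.10 and 0.37 ± 0.05. The HAI genes are known for strong induction by ABA, and ABI1 and ABI2 are named for the ABA-insensitive mutants in which they were found. WT, with libraries of its own, had 9 of 11 receptors lower and 7 of 9 phosphatases higher, where 16.7% of all genes were lower and 14.9% higher. No receptor or phosphatase had a called difference of response between the genotypes, and the lowest adjusted p of that difference was 0.503 among receptors and 0.75 among phosphatases. At an unadjusted p below 0.05 the difference held for 1 receptor and no phosphatase, and DESeq2 called none.

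**Figure D1:**
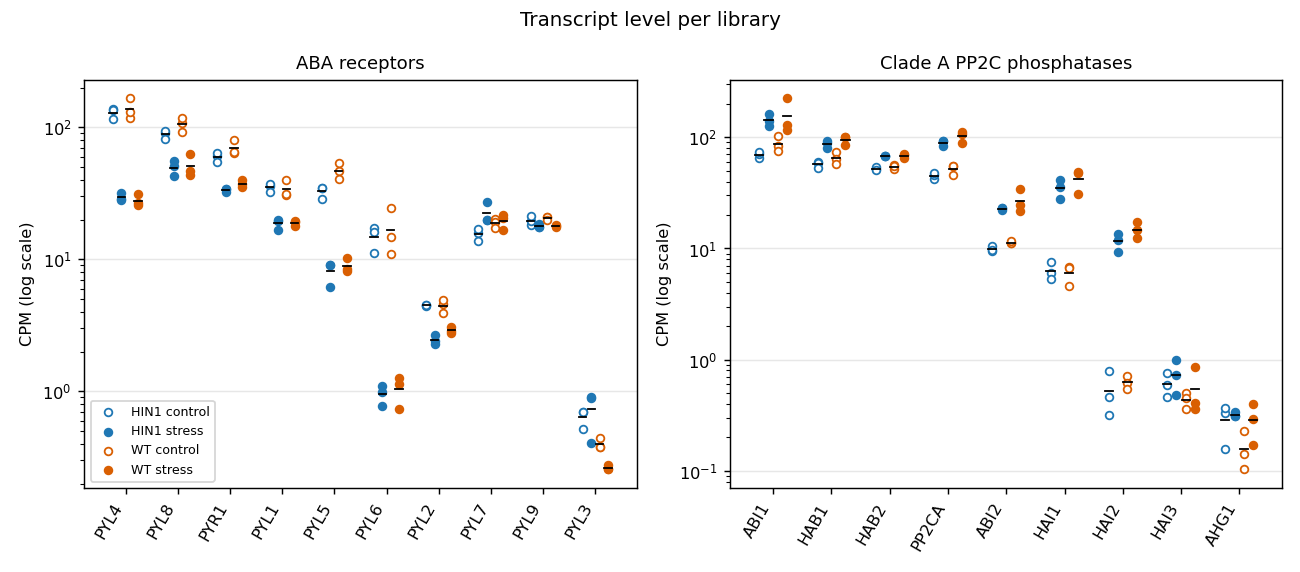
Levels of 10 ABA receptor genes and 9 clade A PP2C genes in CPM on a log axis, in WT and 35S:HIN1 seedlings at control and low water potential. Points are libraries and bars are group means (n = 3). PYL4, PYL5 and PYL6 sit lower under stress and HAI1 and HAI2 sit higher in both genotypes. PYL12 is not drawn because 1 library is at 0.

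Downstream of the phosphatases the changes were smaller. Of 10 SnRK2 kinase genes 6 rose and 1 fell, and in the leave-one-out fits 3 to 6 rose, fewest without control library 2. SNRK2.6, the kinase gene of stomatal closure also called OST1, rose by 0.43 ± 0.09, SNRK2.7 by 0.67 ± 0.12, and SNRK2.8 fell by 0.59 on the log2 scale, while the calls of SNRK2.2, SNRK2.3 and SNRK2.5, with changes of 0.18 to 0.33, did not hold in every leave-one-out fit. Of 9 bZIP and B3 factors of ABA signalling 6 rose and none fell. None was lower at an unadjusted p below 0.05 or by DESeq2 either. GBF3, a G-box binding factor gene, went from 23.6, 24.2 and 23.9 CPM to 50.8, 45.8 and 49.5 CPM, a log2 fold change of 1.03 ± 0.11 (edgeR's adjusted p = 5.78e-05). ABI5 rose by 1.41 ± 0.23, ABF2 by 0.74 ± 0.08 and ABF3 by 0.62 ± 0.12. Of 14 CBF and DREB factors, which act in the partly ABA-independent branch, 2 rose and 1 fell. That is 21.4% called, against 27.1% of all genes, and 1 or 2 rose in the leave-one-out fits. DREB2B rose by 1.01 ± 0.22 and DREB26 fell by 1.34 on the log2 scale. Among genes of ABA synthesis and breakdown 6 of 19 rose and 3 fell, with 6 or 7 higher and 1 to 3 lower in the leave-one-out fits, since the calls of ABCG40, AIT1 and UGT71C5 were each lost in some. NCED3, the rate-limiting dioxygenase of ABA synthesis under water deficit, stood at 1.98, 2.64 and 3.36 CPM in control and at 9.15, 8.62 and 10.1 CPM under stress, a log2 fold change of 1.80 ± 0.39 (adjusted p = 0.00553). BGLU18, which releases ABA from its glucose ester, rose by 2.86 ± 0.39, and CYP707A1, an ABA 8'-hydroxylase gene of breakdown, by 0.73 ± 0.11.

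Promoters of 3 genes that rose are printed because they hold the letters of known stress elements, and that of PYL6 because it fell and holds neither of the 2 elements marked. Each is the 250 bases before the annotated gene start in RefSeq's TAIR10.1, 5′ to 3′ on the strand of the gene. In RD20 (chr2:14146556-14146805, minus strand) and HAI2 (chr1:2282829-2283078, minus strand) capitals mark the ABRE core ACGTG on either strand. In RD29A (chr5:21240467-21240716, plus strand) they mark the DRE core CCGAC, and PYL6 (chr2:16846195-16846444, minus strand) holds neither set of letters.
RD20: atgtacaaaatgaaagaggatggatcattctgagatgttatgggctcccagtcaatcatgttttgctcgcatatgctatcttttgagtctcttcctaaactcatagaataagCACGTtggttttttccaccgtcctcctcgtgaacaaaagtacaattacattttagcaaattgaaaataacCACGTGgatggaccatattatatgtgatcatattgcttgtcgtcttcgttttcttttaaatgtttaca
HAI2: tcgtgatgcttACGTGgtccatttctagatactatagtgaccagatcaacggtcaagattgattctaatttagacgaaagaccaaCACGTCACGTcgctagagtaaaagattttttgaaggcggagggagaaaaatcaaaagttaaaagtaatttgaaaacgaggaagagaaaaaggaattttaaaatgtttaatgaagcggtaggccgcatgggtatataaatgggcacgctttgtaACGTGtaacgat
RD29A: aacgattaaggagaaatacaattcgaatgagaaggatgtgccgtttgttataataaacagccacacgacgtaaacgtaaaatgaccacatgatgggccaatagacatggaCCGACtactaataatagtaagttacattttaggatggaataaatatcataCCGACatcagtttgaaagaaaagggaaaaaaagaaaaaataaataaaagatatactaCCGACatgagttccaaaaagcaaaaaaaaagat
PYL6: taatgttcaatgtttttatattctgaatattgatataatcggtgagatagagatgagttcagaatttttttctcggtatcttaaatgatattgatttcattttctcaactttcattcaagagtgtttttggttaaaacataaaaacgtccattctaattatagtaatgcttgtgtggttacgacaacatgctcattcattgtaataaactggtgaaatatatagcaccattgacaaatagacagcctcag
The RD20 window has 3 ABRE cores, 2 of which overlap in 1 copy of the G-box CACGTG, since those letters read ACGTG on both strands. HAI2 has 4 ABRE cores, and RD29A has 3 DRE cores and no ABRE core in this window.

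The ABRE core stood in the 250 bases before 24.1% of the 22682 tested genes with a window, in 36.4% of 822 genes that rose 2-fold or more and in 24.6% of 692 genes that fell 2-fold or more. At least 2 copies were present in 9.8%, 17% and 7.2% of them. The G-box stood in 7.3% of all windows, 12.5% of those of risen genes and 3.8% of those of fallen genes. For the DRE core the shares were 12.7%, 14.5% and 10.1%. Of the 28 members of the dehydration list that rose, 20 had an ABRE core (71.4%) and 11 a DRE core (39.3%). Members of that list that were not called and also had an ABRE core were ERD7, XERO1, LEA18, EM6, ECP63, HVA22B and AFP2. The other members not called, COR47, ERD1, LEA3, HVA22A, MYB96, KEG and NAC055, had none. Of the 7 phosphatase genes that rose 4 had an ABRE core (57.1%), and of the 8 receptor genes that fell 1 did (12.5%). ABI1, ABI2 and HAI1 rose without an ABRE core, while AHG1 and HAI3, which were not called, had 2 each. A match is a string of letters, and no binding was measured.

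Proline metabolism was higher on the synthesis side and lower at the first step of breakdown. P5CS1, the pyrroline-5-carboxylate synthetase gene of stress-induced proline accumulation, stood at 57.5, 58.7 and 81.7 CPM in control and at 657, 530 and 869 CPM under stress. That is a log2 fold change of 3.38 ± 0.20 (edgeR's adjusted p = 1.20e-06), and no libraries overlapped. PRODH1, the proline dehydrogenase gene of mitochondrial breakdown, went from 112, 126 and 104 CPM to 34.9, 40.7 and 47.7 CPM, a fall of 1.47 on the log2 scale (adjusted p = 2.02e-05), and PRODH2 fell by 1.09. P5CS2 and P5CR, also of synthesis, rose by 0.33 ± 0.07 and 0.29 ± 0.07. P5CDH, the second step of breakdown, rose by 0.69 ± 0.06. It overlaps SRO5 on the opposite strand, and whether counting used the strand is not given in the sources used here. In all, 5 of 10 proline genes rose and 3 fell, and the leave-one-out fits gave 5 higher and 2 or 3 lower.

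Sugar genes split within their lists. Of 27 genes of galactinol, raffinose and trehalose metabolism 8 rose and 9 fell (6 to 8 and 8 or 9 in the leave-one-out fits), and of 39 genes of starch breakdown and sugar transport 11 rose and 11 fell, with 10 to 16 higher and 10 to 12 lower in the leave-one-out fits, most higher without control library 3. GOLS2, a galactinol synthase gene, stood at 4.54, 4.39 and 7.25 CPM in control and at 53.5, 39.6 and 44.4 CPM under stress, a log2 fold change of 3.09 ± 0.22 (edgeR's adjusted p = 3.69e-06). DIN10, a raffinose synthase family gene known from darkened leaves, went from 256, 255 and 295 CPM to 45.5, 57.2 and 72.4 CPM, a log2 fold change of -2.20 ± 0.17. SUS3, a sucrose synthase gene, had very even replicates, at 9.85, 8.95 and 11 CPM in control and 47.6, 45.8 and 50.9 CPM under stress, a log2 fold change of 2.28 ± 0.08. The libraries of the groups were apart for all 3 genes.

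The SWEET sugar exporter genes moved to both sides. SWEET10 fell from 5.42, 6.54 and 4.72 CPM to 0.282, 0.149 and 0.112 CPM, a log2 fold change of -4.92 ± 0.40 (edgeR's adjusted p = 8.73e-06), and SWEET11, a gene of phloem loading, fell by 0.68 on the log2 scale. SAG29, also called SWEET15, rose from 0.775, 0.605 and 1.09 CPM to 7.96, 14.3 and 24.5 CPM, a log2 fold change of 4.24 ± 0.53, and SWEET4 rose by 3.42 ± 0.24. Among amylases BAM1, a chloroplast beta-amylase gene, rose by 0.74 ± 0.12. BAM5 rose from 1.3, 1.13 and 1.54 CPM to 4.75, 5.86 and 6.36 CPM, by 2.10 ± 0.19, which was less than the 4.14 seen in WT (adjusted p of the difference = 0.0119). AMY1, an alpha-amylase gene, rose by 1.61 ± 0.17 against 0.05 in WT (adjusted p of the difference = 0.0326), a difference whose call was lost in every leave-one-out fit, at adjusted p-values up to 0.113.

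Of 14 small heat shock protein genes, which encode chaperones that bind unfolding proteins, 13 rose, with a median log2 fold change of 2.35, and 11 to 13 rose in the leave-one-out fits. None fell, at an unadjusted p below 0.05 and by DESeq2 as well. HSP23.6, of mitochondria, stood at 0.221, 0.175 and 0.537 CPM in control and at 5.59, 8.16 and 17.1 CPM under stress, a log2 fold change of 5.05 ± 0.53 (edgeR's adjusted p = 5.31e-05). HSP17.6C, of the cytosol, went from 0.569, 1.07 and 1.11 CPM to 9.38, 15.4 and 26.3 CPM, a log2 fold change of 4.22 ± 0.40. Stress library 3 was the highest for both genes, stress library 1 the lowest of the stressed libraries, and no control library reached it. Without stress library 3 the values were 4.47 and 3.76, and without control library 3 that of HSP23.6 was 5.67. HSP17.4, HSP17.6B, HSP17.8 and HSP26.5 rose by 3.32 ± 0.36, 2.43 ± 0.24, 2.06 ± 0.30 and 1.62 ± 0.16. Outside this list AT4G21870, annotated as an HSP20-like chaperone gene, was among the strongest falls: it went from 30.1, 40.6 and 40.9 CPM to 5.73, 5.29 and 5.5 CPM, a log2 fold change of -2.76 ± 0.21 (adjusted p = 5.49e-06).

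WT had 6 of the 14 small heat shock genes higher, with a median of 0.84. The changes there were 2.01 for HSP23.6, 1.42 for HSP17.6C, 0.55 for HSP17.6B (adjusted p = 0.0983) and 0.40 for HSP26.5 (adjusted p = 0.0763). HSP22.0, of the endoplasmic reticulum, rose by 3.77 ± 0.39 in the line and by 4.15 in WT. The difference of response itself was called for none of the 14 by edgeR, where the lowest adjusted p was 0.059, for 9 at an unadjusted p below 0.05, all higher in the line, and for 6 by DESeq2. Larger chaperones and heat shock factors did not move as a group: 5 of 32 rose and 4 fell (28.1% called, against 27.1% of all genes). In the leave-one-out fits 3 rose without stress library 3 or control library 1 and 9 without stress library 2, while 2 to 4 fell. HSFA6A rose by 7.34 ± 0.85 from at most 0.0336 CPM to 2.13, 2.45 and 6.88 CPM, or by 6.61 without stress library 3, while HSFA3 and HSFA7A fell by 1.14 and 0.97 on the log2 scale.

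**Figure D2:**
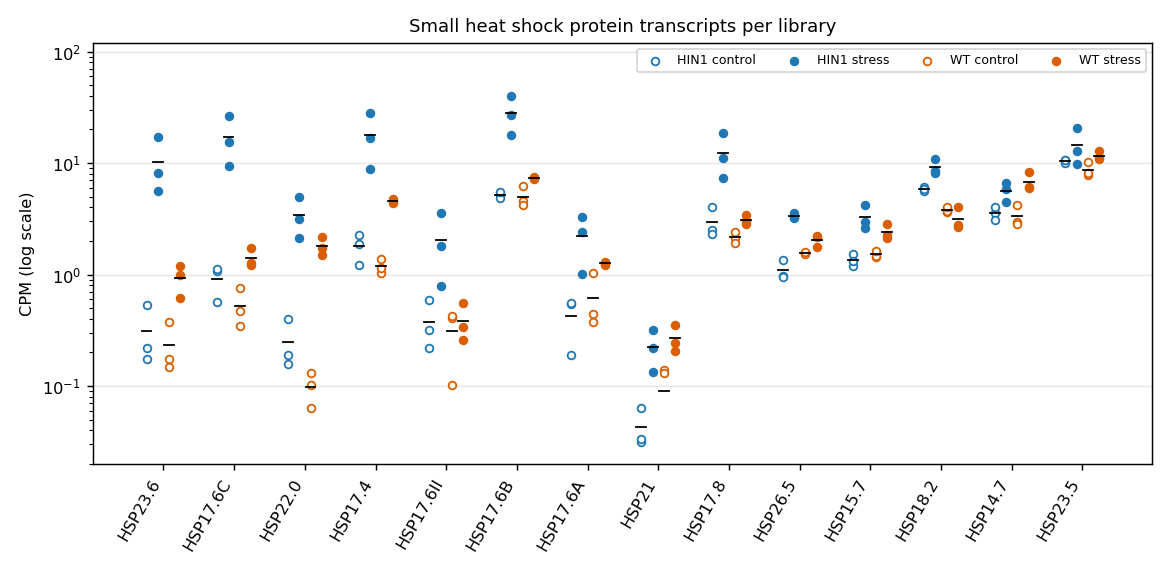
Levels of 14 small heat shock protein genes in CPM on a log axis in the 4 groups, with points for libraries and bars for group means (n = 3). Stressed libraries of the line lie above its control libraries for most genes, among them HSP23.6 and HSP17.6C, and for several genes WT moved less.

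The promoter of HSP17.4 (chr3:16984868-16985117, minus strand, TAIR10.1) is printed as an example of the family, with the letters of a heat shock element, GAANNTTC, in capitals.
HSP17.4: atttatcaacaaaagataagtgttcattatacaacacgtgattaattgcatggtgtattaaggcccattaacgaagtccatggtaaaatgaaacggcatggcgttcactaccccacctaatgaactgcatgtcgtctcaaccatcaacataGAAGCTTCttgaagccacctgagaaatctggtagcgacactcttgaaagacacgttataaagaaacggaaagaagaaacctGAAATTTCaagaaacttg
It holds 2 such elements, and 4 of the 13 small heat shock genes that rose had at least 1 (30.8%), against 9.4% of all windows, 9.0% of those of genes that rose 2-fold or more and 11.8% of those of genes that fell as much.

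Among flavonoid and anthocyanin genes 12 of 28 rose and 2 fell, and 8 to 11 rose and 1 or 2 fell in the leave-one-out fits. MYB75, a regulator of anthocyanin synthesis also known as PAP1, stood at 0.49, 0.159 and 0.504 CPM in control and at 6.89, 6.24 and 10.9 CPM under stress, a log2 fold change of 4.38 ± 0.42 (edgeR's adjusted p = 2.75e-05). DFR, the dihydroflavonol reductase gene, was uneven within both groups, at 8.14, 1.77 and 4.55 CPM in control and 20.9, 45.8 and 80.3 CPM under stress, and rose by 3.34 ± 0.58, or by 3.96 without control library 1. The 2 groups did not overlap for either gene. TT8, GSTF12 and UGT79B1, a regulator, a transferase for vacuolar transport and a glycosyltransferase of the same pathway, rose by 3.00 ± 0.41, 3.30 ± 0.45 and 3.69 ± 0.65.

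**Figure D3:**
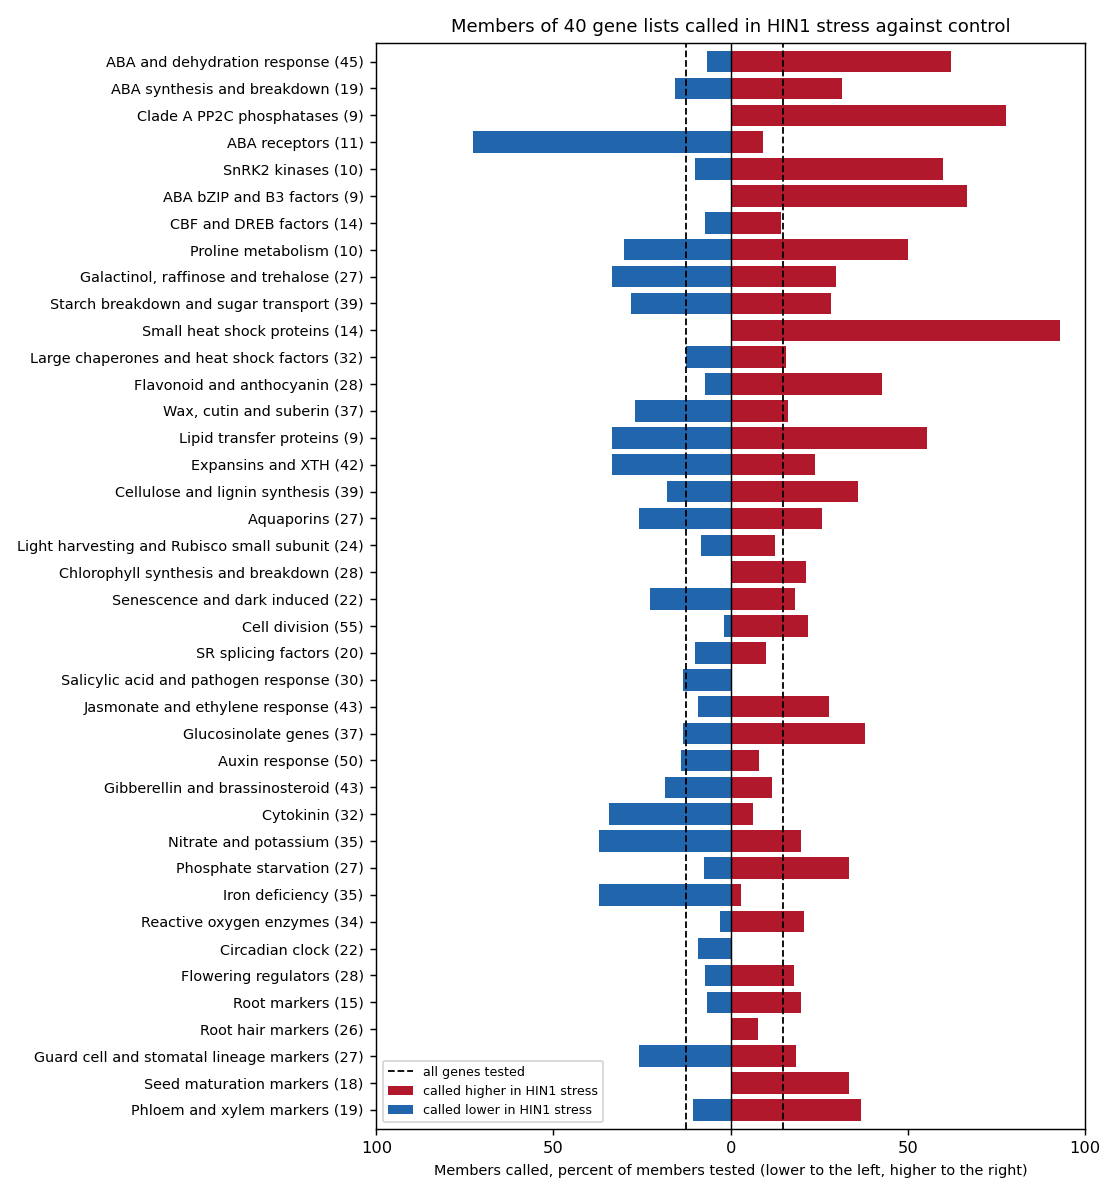
Percent of tested members called higher (right) and lower (left) under stress in the 35S:HIN1 line for 40 gene lists. Dashed lines mark the share of all genes tested, 14.7% higher and 12.5% lower. Small heat shock proteins, PP2C phosphatases and the dehydration list lie far to the right and ABA receptors far to the left.

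At the surface and in the wall, families moved in different directions. Of 9 lipid transfer protein genes 5 rose and 3 fell. LTP3, which encodes a small lipid-binding protein of the epidermal wall, stood at 5.17, 7.66 and 8.04 CPM in control and at 74.2, 46.5 and 61.2 CPM under stress, a log2 fold change of 3.12 ± 0.19 (edgeR's adjusted p = 1.23e-06). Its neighbour LTP4 went from 0.522, 0.287 and 3.21 CPM to 62.6, 44 and 50.4 CPM, a log2 fold change of 5.31 ± 0.65, which was 7.0 without control library 3. The groups did not overlap for LTP3, nor for LTP4, where the rule of naming by fold change required it. AZI1, a lipid transfer-like gene of systemic immunity, fell by 2.72 on the log2 scale and LTP5 by 0.94. AT2G45180, annotated as a protease inhibitor and lipid transfer family member, had the largest fall among genes named by their difference in mean CPM, from 1058, 1003 and 1134 CPM to 207, 214 and 221 CPM, a log2 fold change of -2.31 ± 0.09. For wax, cutin and suberin 6 of 37 rose and 10 fell, and 2 to 5 rose and 8 to 12 fell in the leave-one-out fits. CER1, of alkane formation in wax, rose by 1.84 ± 0.14, from 19.8, 16.8 and 21.8 CPM to 82.7, 59.9 and 66.3 CPM, while CER6 and KCS1, of fatty acid elongation, fell by 0.56 and 0.74 on the log2 scale.

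Expansins, which loosen walls, and xyloglucan endotransglucosylase/hydrolases (XTHs), which cut and rejoin xyloglucan, differed in direction. Of 14 expansin genes 8 rose, with a median of 0.33, and of 24 XTH genes 2 rose and 12 fell, with a median of -0.66. The calls of EXPA9, EXPA15 and EXPB3, with changes of 0.29 to 0.47, and of XTH10, XTH19 and XTH25 were lost in some leave-one-out fits. XTH24 went from 148, 173 and 147 CPM to 56.2, 58.4 and 56.7 CPM, a log2 fold change of -1.45 ± 0.10 (edgeR's adjusted p = 3.21e-06). XTH4 and XTH6 fell by 0.95 and 1.33 on the log2 scale. EXPA4 rose from 163, 153 and 157 CPM to 238, 237 and 248 CPM, by 0.61 ± 0.08, and EXPA10 by 0.82 ± 0.12. Of 39 genes of cellulose and lignin synthesis 14 rose and 7 fell, and 10 to 13 rose and 4 to 7 fell in the leave-one-out fits. The secondary wall cellulose synthase genes IRX1, IRX3 and IRX5 rose by 0.63 ± 0.09, 0.73 ± 0.10 and 0.62 ± 0.10, CAD5, of lignin alcohol formation, by 0.87 ± 0.06, and PAL3 fell by 1.18 on the log2 scale.

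The strongest falls among genes averaging at least 5 CPM over the 6 libraries of the line included wall protein and receptor kinase genes. AT3G16670, annotated in the Ole e 1 allergen and extensin family, went from 71, 88.4 and 114 CPM to 3.34, 4.47 and 2.88 CPM, a log2 fold change of -4.67 ± 0.35 (edgeR's adjusted p = 4.47e-06). AT1G26250, a proline-rich extensin-like gene, went from 23.1, 32.4 and 31.6 CPM to 1.21, 1.88 and 1.79 CPM, a log2 fold change of -4.16 ± 0.24. CRK30, a cysteine-rich receptor-like kinase gene, UMAMIT17, of an amino acid transporter family, and AT5G59680, a leucine-rich repeat kinase gene, fell by 3.59, 3.44 and 3.19 on the log2 scale. At the other end were AT3G42383, annotated as a pseudogene, which went from 0.0632, 0 and 0.0336 CPM to 10.2, 7.56 and 12.8 CPM (a log2 fold change of 8.21, or 9.11 without control library 1), and AT2G37870, a lipid transfer family gene that rose by 5.31 ± 0.27. AT2G16367, annotated as a transcribed pseudogene, rose by 6.38 ± 0.48.

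In the lists of nitrate and potassium genes and of iron deficiency genes more members fell than rose, and the reverse held for phosphate starvation genes. These lists hold enzymes and other proteins as well as transporters. Of 35 nitrate and potassium genes 7 rose and 13 fell (6 or 7 and 12 to 14 in the leave-one-out fits). NRT1.1, the dual-affinity nitrate transporter gene, stood at 232, 239 and 230 CPM in control and 134, 113 and 133 CPM under stress, a log2 fold change of -0.88 ± 0.09 (edgeR's adjusted p = 4.72e-05). NIA1, of nitrate reduction, fell by 0.84 on the log2 scale, and HKT1 and NHX2, sodium and vacuolar cation transport genes, rose by 1.47 ± 0.15 and 1.06 ± 0.09. The neighbours NRT2.1 and NRT2.2 moved apart: NRT2.1 went from 3.4, 6.85 and 6.83 CPM to 1.4, 1.23 and 1.57 CPM, and NRT2.2 from 0.0632, 0.0318 and 0.0672 CPM to 1.38, 0.866 and 1.02 CPM. Of 27 phosphate starvation genes 9 rose and 2 fell, and 7 or 8 rose and 0 to 2 fell in the leave-one-out fits. PAP17, an acid phosphatase gene, stood at 15.5, 15.1 and 16.9 CPM in control and 52.4, 52.5 and 59.6 CPM under stress, a log2 fold change of 1.79 ± 0.10. PHT1;4, a phosphate transporter gene, rose by 1.30 ± 0.09. Of 35 iron deficiency genes 1 rose and 13 fell, and 1 to 3 rose and 6 to 12 fell in the leave-one-out fits, fewest without stress library 3. NAS3, of nicotianamine synthesis, fell by 3.32 on the log2 scale from 1.15, 5.57 and 4 CPM to 0.345, 0.448 and 0.272 CPM, and F6H1, of coumarin synthesis, by 1.05.

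Of 27 aquaporin genes 7 rose and 7 fell (6 or 7 and 5 to 7 in the leave-one-out fits). TIP2;1, a tonoplast aquaporin gene, stood at 677, 635 and 796 CPM in control and at 337, 332 and 322 CPM under stress, a log2 fold change of -1.09 ± 0.09 (edgeR's adjusted p = 1.13e-05). TIP1;1 and PIP1;5, a second tonoplast and a plasma membrane member, fell by 0.64 and 0.78 on the log2 scale, and PIP2;5 rose by 1.23 ± 0.11.

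Jasmonate and defence genes gave mixed counts. Of 43 jasmonate and ethylene genes 12 rose and 4 fell, and 8 to 13 rose and 2 to 4 fell in the leave-one-out fits. VSP2, a vegetative storage protein gene of jasmonate response, stood at 79.8, 60.3 and 76.6 CPM in control and at 404, 401 and 646 CPM under stress, a log2 fold change of 2.74 ± 0.22 (edgeR's adjusted p = 7.07e-06). LOX2, a chloroplast lipoxygenase gene of jasmonate synthesis, went from 229, 154 and 215 CPM to 698, 734 and 1423 CPM, by 2.26 ± 0.34. THI2.1, a thionin gene, went from 0.364, 0.287 and 0.436 CPM to 3.97, 6.02 and 27.4 CPM, a log2 fold change of 5.10 ± 0.93 that was 3.78 without stress library 3. Of 30 salicylic acid and pathogen genes none rose and 4 fell (3 to 5 in the leave-one-out fits), which is 13.3% called, against 27.1% of all genes. In that list 1 gene was higher at an unadjusted p below 0.05 and none by DESeq2. WRKY54 fell by 1.66 and ALD1, of pipecolic acid synthesis, by 2.10 on the log2 scale. Of 37 glucosinolate genes 14 rose and 5 fell, and 11 to 15 rose and 2 to 4 fell in the leave-one-out fits. MAM1, of methionine chain elongation, rose by 0.73 ± 0.07, AOP2, of side chain modification, by 1.12 ± 0.11, and the regulator genes MYB29 and MYB76 by 0.91 ± 0.12 and 1.35 ± 0.15, while CYP79F2 and MAM3 fell by 1.06 and 0.72 on the log2 scale. TGG2, a myrosinase gene, went from 666, 624 and 669 CPM to 1225, 1225 and 1151 CPM.

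In the auxin, cytokinin and gibberellin lists more members fell than rose, where 14.7% of all genes rose and 12.5% fell. For auxin the share that fell was near that of all genes. Of 50 auxin response genes 4 rose and 7 fell (2 or 3 and 3 to 6 in the leave-one-out fits), with IAA19 and IAA3, transcriptional repressor genes, lower by 1.12 and 0.76 on the log2 scale. Of 32 cytokinin genes 2 rose and 11 fell, and 1 or 2 rose and 7 to 12 fell in the leave-one-out fits. CKX5, of cytokinin breakdown, IPT3, of synthesis, and ARR7, a response regulator gene, fell by 1.04, 0.90 and 0.66, and LOG5, of cytokinin activation, rose by 0.96 ± 0.17. Of 43 gibberellin and brassinosteroid genes 5 rose and 8 fell (4 or 5 and 7 to 9 in the leave-one-out fits). Within the gibberellin-stimulated peptide genes GASA4 rose from 157, 162 and 162 CPM to 501, 476 and 501 CPM, by 1.62 ± 0.06 (edgeR's adjusted p = 4.11e-08), and GASA1 fell from 214, 240 and 197 CPM to 57.1, 62.6 and 56.4 CPM, by 1.89 on the log2 scale (7.15e-06).

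Of 55 cell division genes 12 rose and 1 fell (23.6% called, against 27.1% of all genes). In the leave-one-out fits 6 to 12 rose, fewest without control library 3. The gene that fell was KRP2, a cyclin-dependent kinase inhibitor gene (log2 fold change -0.26 ± 0.08, edgeR's adjusted p = 0.0313), and its call was lost in every such fit. CYCD3;1, a D-type cyclin gene, went from 61.2, 55.6 and 55.1 CPM to 72.1, 70.9 and 72.5 CPM, by 0.33 ± 0.06 (edgeR's adjusted p = 0.00232), and SMR5, a cyclin-dependent kinase inhibitor gene, rose by 1.48 ± 0.26. The median over the list was 0.07. Of 24 genes of light harvesting and the Rubisco small subunit 3 rose and 2 fell, with a median of 0.06, and 1 to 3 rose and 1 fell in the leave-one-out fits. LHCB2.2, of the antenna of photosystem II, stood at 1071, 801 and 1165 CPM in control and 1473, 1337 and 1470 CPM under stress, a rise of 0.50 ± 0.13 (adjusted p = 0.0142). Some of its reads (2.72%) were at several sites. RBCS1B, of the Rubisco small subunit, fell by 0.73 on the log2 scale, with 13.2% of its reads at several sites. In WT 13 of the 24 fell, with a median of -0.38. The difference of response was called for none of them by edgeR (lowest adjusted p = 0.211), for 16 at an unadjusted p below 0.05, all with a higher log2 fold change in the line, and for 6 by DESeq2. Control levels differed too. LHCB2.2 averaged 1012 CPM in the line and 1417 CPM in WT in control, and 1427 and 1218 CPM under stress. For LHCB5 these means were 3309 and 4172 CPM, then 3408 and 3175 CPM. RBCS1B was higher in the line in control, at 1548 against 1415 CPM. Of 22 clock genes none rose and 2 fell, while 2 were higher at an unadjusted p below 0.05 and 1 by DESeq2. In the leave-one-out fits 0 to 3 rose, most without control library 3, and 1 to 3 fell. LNK2, a clock coactivator gene, fell by 0.53 on the log2 scale.

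Markers of organs and cell types were also read, since whole seedlings mix them and, in such tissue, fewer cells of a type and less RNA per cell cannot be told apart. The counts stand beside 14.7% of all genes that rose and 12.5% that fell. Of 15 root markers 3 rose and 1 fell (1 to 4 and 0 or 1 in the leave-one-out fits). Their summed level was 173 to 194 CPM in control and 183 to 194 CPM under stress. Of 26 root hair markers 2 rose (1 or 2 in the leave-one-out fits) and none fell, at an unadjusted p below 0.05 and by DESeq2 as well, with sums of 323 to 354 and 346 to 391 CPM. Of 27 guard cell and stomatal markers 5 rose and 7 fell (2 to 4 and 6 to 8 in the leave-one-out fits), with sums of 1264 to 1368 and 1347 to 1499 CPM. OST2, a plasma membrane proton pump gene, took more of that sum than all other members together, and without it the sums were 576, 569 and 579 CPM in control and 596, 534 and 557 CPM under stress, which overlap. KAT1, a guard cell potassium channel gene, and MYB60, a guard cell regulator gene, fell by 0.87 and 0.74 on the log2 scale. In the same list EPF1 and ER rose by 0.71 ± 0.18 and 0.57 ± 0.08, and FAMA, MUTE, TMM and SLAC1 were not called. Of 19 phloem and xylem markers 7 rose and 2 fell (4 to 7 and 2 in the leave-one-out fits), with sums of 762 to 813 and 825 to 960 CPM. Of 18 seed maturation markers tested 6 rose (5 or 6 in the leave-one-out fits) and none fell, at an unadjusted p below 0.05 and by DESeq2 as well, though 1 fell without control library 1. These are low in seedlings, and their sum was 29.8 to 36.9 CPM in control and 41.9 to 44.8 CPM under stress. The part of any shift in tissue makeup in the results above was not tested.

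Against WT, with which the line shares no library, the response differed for 36 of 22924 genes (0.157%) by the test of the difference itself. In 35 of them the log2 fold change was higher in the line, which includes falls that were weaker than in WT. Of the 29 that were also called in the line's own response 21 rose, and of the 27 also called in WT 25 fell. Of the 36, 10 rose in the line and fell in WT. In the leave-one-out fits 12 to 35 genes were called. DTX1, a multidrug efflux transporter gene, stood at 3.38, 4.27 and 3.54 CPM in control and 6.89, 8.35 and 8.87 CPM in stressed seedlings of the line. In WT it stood at 1.88, 1.43 and 1.56 CPM in control and 0.312, 0.518 and 0.396 CPM under stress. The changes were 1.11 ± 0.17 and -1.99, and their difference was 3.10 ± 0.27 (edgeR's adjusted p = 6.87e-04). YSL7, of a family of metal-nicotianamine transporters, rose from 5.01, 4.47 and 4.38 CPM to 20.1, 17.7 and 24.8 CPM in the line, while WT held 2.08, 2.41 and 1.79 CPM in control and 2.24, 2.02 and 1.75 CPM under stress. Its difference was 2.23 ± 0.21 (adjusted p = 0.00155). The 2 genes were higher in the line than in WT already under control, with no overlap of libraries. They were named under a floor of 5 CPM averaged over libraries of the line, which favours genes that are higher there.

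AT1G17960, annotated as a threonyl-tRNA synthetase, differed little in control, at 2.97, 3.3 and 3.04 CPM in the line and 3.85, 3.2 and 3.37 CPM in WT. Under stress it reached 19.9, 18.3 and 25.3 CPM in the line and 5.89, 4.42 and 6.28 CPM in WT, a difference of 2.10 ± 0.21 (edgeR's adjusted p = 0.00268). AT5G38940, annotated as a cupin superfamily gene, stood at 16.9, 16.2 and 17.6 CPM in control and at 39.8, 41.5 and 42 CPM under stress in the line, and at 15.9, 14.6 and 15.1 CPM and 10.7, 14.5 and 13 CPM in WT. The difference was 1.54 ± 0.13 (adjusted p = 6.87e-04). AT3G16530, a legume lectin family gene, fell in both genotypes, by 2.18 in the line and 3.54 in WT, and SULTR3;5, a sulfate transporter family gene, by 1.17 and 2.02. Their differences were 1.36 ± 0.18 and 0.86 ± 0.14, and the calls of these 2 were lost in 2 and 5 of the 6 leave-one-out fits.

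**Figure D4:**
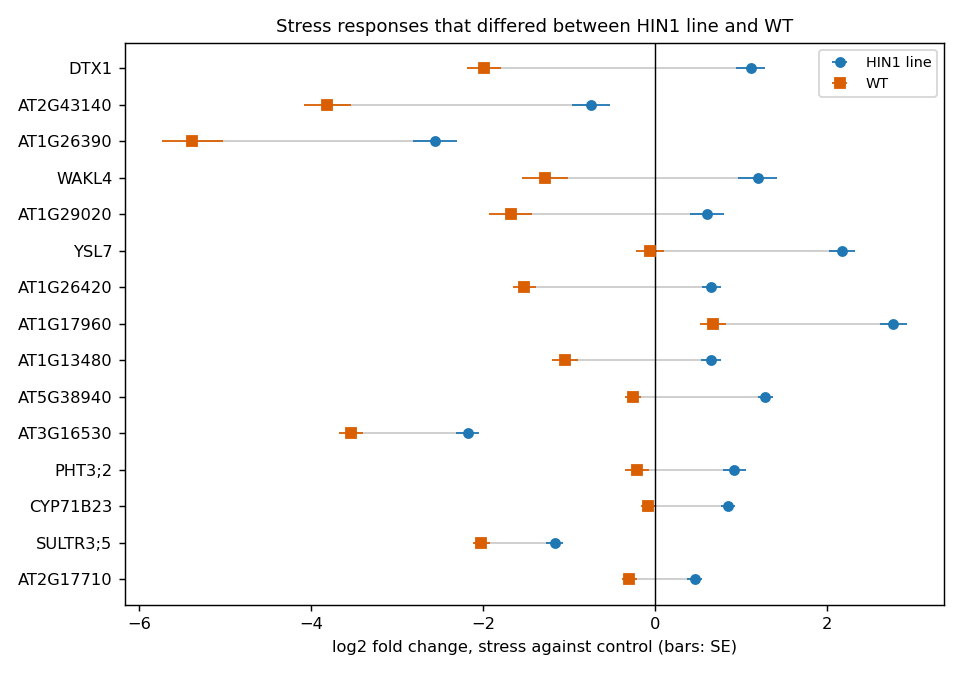
Log2 fold change under stress in the 35S:HIN1 line and in WT for 15 genes with a called difference of response and at least 5 CPM, with approximate standard errors (n = 3 per group). DTX1, WAKL4 and AT1G26420 lie on opposite sides of 0 in the 2 genotypes.

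A set of genes was at or near 0 reads in control seedlings of the line and read in all its stressed libraries. The rule, chosen after these values were seen, took genes with at least 10 reads in each of 3 libraries and at most 3 reads over the 3 libraries of the other treatment. It found 68 genes read under stress, 47 of them protein coding and 21 pseudogenes, and 4 read in control. In WT the same rule found 13 and 9. At a minimum of 5 reads the counts were 134 and 8 in the line and 29 and 21 in WT, and at 20 reads they were 30 and 2, and 5 and 4. Of the 68, 61 could be tested and 60 rose. As the rule used these reads, that count is a description, and so is the comparison with WT that follows, since genes chosen for being high in the stressed line tend to be lower elsewhere. Reads of 61 of the 68 were fewer in every WT stress library than in any stressed library of the line, and 23 had at most 3 reads over the 3 WT stress libraries. The test of the difference of response called none of the 61 by edgeR, with 14 at an unadjusted p below 0.05, and 6 by DESeq2. Where whole groups held 0 reads, edgeR's test could not resolve a difference. The SKP1-like gene SK7, for example, had a difference of 4.17 with an approximate standard error of 6164.69. For such genes the lack of a call decides nothing.

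These genes lay on all chromosomes, with 11, 12, 14, 13 and 18 on chromosomes 1 to 5, and 6 overlapped another gene. More than 10% of reads were at several sites for 11 of them. The other 57 together took 0.289, 0.0328 and 0.394 reads per 1e6 gene reads in control and 27.2, 29.3 and 38.3 in stressed libraries of the line. In WT they took 0.478, 0.393 and 0.785 in control and 5.79, 3.81 and 4.55 under stress. The genes were chosen for reads in the stressed libraries of the line, so that those lie above the others follows in part from the choice.

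**Figure D5:**
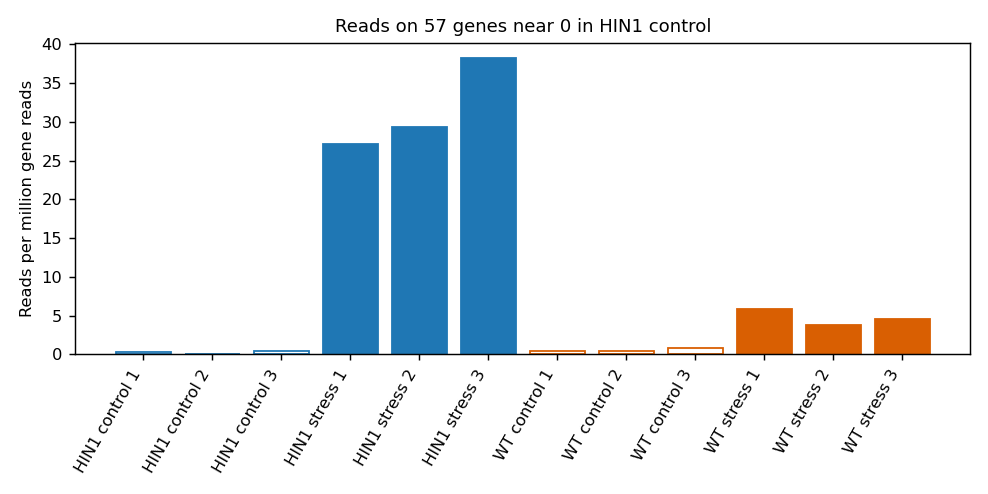
Reads per 1e6 gene reads on 57 genes that were at or near 0 in control seedlings of the 35S:HIN1 line and read in its stressed libraries, by library, with bars from 0. The stressed libraries of the line took 27.2 to 38.3 and those of WT 3.81 to 5.79. The genes were chosen by reads of the line, so its own contrast is a description.

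The members given here were chosen after their values were seen. SK7, of the SKP1-like family of ubiquitin ligase subunits, had 0, 0 and 0 reads in control and 45, 57 and 88 reads in stressed seedlings of the line, against 2, 4 and 4 in WT stress. With the control floor set at 3 counts over the group, that would be 61.2-fold higher, a value that rests on this floor and on the choice of the gene. Of 14 SKP1-like genes tested 10 rose, against 14.7% of all genes. In WT 6 rose and 1 fell, against 14.9% and 16.7%. All 10 were below 5 CPM in every library of the line, and the 4 at 5 CPM or more were not called. Genes this low could pass the filter through the stressed libraries of the line alone, so the count is a description. CYP81D2, a cytochrome P450 gene, had 0 reads in control, 47, 48 and 76 under stress in the line, and 0 in all WT libraries. AT1G70400, annotated as a NOSIC domain gene, had 0, 0 and 2 reads in control and 107, 107 and 117 under stress, against 4, 6 and 12 in WT stress. AT4G16810, annotated with a VEFS-box of polycomb proteins, had 2, 0 and 0 reads and 74, 81 and 100 reads. AT5G33434, a pseudogene, had 0 in control, 98, 80 and 112 under stress, and 4, 4 and 6 in WT stress. CRU2, which encodes a seed storage protein, had 0 in control and 18, 16 and 15 reads under stress. Each of these stayed below 2 CPM in every library of the line, so they are low transcripts even where they are read.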

How the data were processed

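Stranded poly-A RNA-seq of whole seedlings was deposited as 1 table per library. Per the file headers, the deposited tables hold reads per gene, RPKM and the fraction of a gene's reads that mapped to several sites. For each gene the authors deposited an expected count of reads, fractional for some genes, and these were rounded to whole numbers. The deposited RPKM values were not tested, and the deposited fraction only marked genes with shared reads. The submitters' processing notes name TAIR10 as build, and as tools Bowtie2, Trimmomatic 0.35, bcl2fastq 1.8.4, DESeq2 and CASAVA. How genes were counted, with which annotation and with or without strand, is not given in the sources used here.

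A single quasi-likelihood fit over all 12 libraries had 1 coefficient for each group (edgeR 4.0.16, limma 3.58.1, R 4.3.3) after filterByExpr with a minimum count of 10, which kept 22924 of 33602 genes, and TMM scaling. Tests were two-sided, with Benjamini-Hochberg adjustment over these genes, 8 residual degrees of freedom and a biological coefficient of variation of 13.04%. The interaction is the response of the line less that of WT. Standard errors are approximate (the size of a log2 fold change over the root of its F statistic), and they and the p-values cover only the spread between experiments of 1 line. DESeq2 1.42.0, other normalizations and filters, leaving out libraries, and a replicate block were alternatives.

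Of 1136 entries in 40 gene lists, 1125 matched a locus. Named genes are HIN1 and the 10 highest and 10 lowest log2 fold changes among called genes with no overlap of libraries and a mean of 5 CPM or more. The 10 highest and 10 lowest differences in mean CPM among called genes with no overlap are named too. So are up to 8 interaction genes in each direction, called both there and in the line's own response, with a mean of 5 CPM or more. Both means are over the 6 libraries of the line. Up to 5 called members per list and direction are named, or 2 of highest mean, and other list members may be given. Members and lists were chosen with earlier results of these data known, and the rule for genes near 0 was chosen after its values were seen. Promoters are the 250 bases before the RefSeq gene start (TAIR10.1), and motifs were searched as letters on both strands.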

Additional observations from a re-analysis of the deposited data

Results flagged for a closer look

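Of the 36 genes whose response in the line differed from that in WT by edgeR's quasi-likelihood test of the difference itself, 17 are named here. They averaged at least 5 CPM over the 6 libraries of the line and were also called in its own response, or are members of the gene lists. This floor was not applied to WT, so it favours genes that are higher in the line. Each value is the log2 fold change in the line less that in WT. The genes with 6 of 6 leave-one-out fits called were DTX1 at 3.10, AT2G43140 at 3.06, YSL7 at 2.23, AT1G26420 at 2.17, AT1G17960 at 2.10, AT1G13480 at 1.70, AT5G38940 at 1.54 and CYP71B23 at 0.93, and BAM5 at -2.05, the only negative value. DTX1, AT1G26420 and AT1G13480 rose in the line and fell in WT.

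In the other 8 the call was lost in at least 2 of the 6 fits. These were AT1G26390 at 2.83, WAKL4 at 2.46, AT1G29020 at 2.28, AMY1 at 1.56, AT3G16530 at 1.36, PHT3;2 at 1.13, SULTR3;5 at 0.86 and AT2G17710 at 0.76. Their direction was the same in all 6 fits.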

How the results depend on the processing

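The 6219 genes called in the line became 4591 to 4985 with 1 library of the line left out, and the 1519 at 2-fold or more became 1307 to 1451. A fit of the 6 libraries of the line alone called 3177 higher and 3230 lower, so the excess of risen genes over fallen ones turned over. The 36 genes with a different response became 12 to 35 with 1 library left out, fewest without control library 3, then 18 without stress library 3 and 20 without control library 2, 8 with libraries 1 and 2 only and 214 by DESeq2. The cause was not tested. The change of HIN1 was 0.27 with libraries 1 and 2 only (edgeR's adjusted p = 0.0857), and it rose by 0.30 to 0.46 with 1 library left out. Of the 436 list members called, 349 to 374 were called with 1 library left out. The 68 genes near 0 became 134 at a minimum of 5 reads and 30 at 20 reads. Of 345 named genes called, 83 lost the call under at least 1 alternative, 53 of them with libraries 1 and 2 only, 9 under the replicate block and none under DESeq2. No value of a comparison or a named gene reversed its direction.

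The replicate numbers were not taken to pair libraries: same-numbered control and stressed libraries deviated with correlations of 0.16, 0.003 and 0.127, and libraries 1 and 3 but not 2 correlated best with their own number, a hint from the data and not from the design, as is the chloroplast share, highest in library 3 of each group. A replicate block gave 6322 genes called, 1490 of them at 2-fold or more, 445 list members, 27 genes with a different response and a HIN1 change of 0.38. Genes with few reads have a wide counting error at this depth. Only 1 transformed line was sampled, and another was not analysed here.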

Other observations

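The counts of the remaining lists stand beside 14.7% of all genes higher and 12.5% lower. Of 28 genes of chlorophyll synthesis and breakdown 6 rose and none fell by edgeR's quasi-likelihood test, with 1 lower at an unadjusted p below 0.05 and 1 by DESeq2, a median log2 fold change of 0.04, and 3 or 4 higher and 0 or 1 lower with 1 library left out. Of 34 genes of reactive oxygen enzymes 7 rose and 1 fell, with 5 to 7 higher and 0 to 2 lower in the leave-one-out fits. APX2, a heat-inducible ascorbate peroxidase gene, rose from 0.0949, 0.191 and 0.0672 CPM to 0.612, 0.672 and 1.09 CPM, a log2 fold change of 2.72 ± 0.48 (edgeR's adjusted p = 0.00169), and DHAR1, of ascorbate recycling, rose by 0.73 ± 0.11. Of 22 senescence and dark-induced genes 4 rose and 5 fell, with 2 higher in every leave-one-out fit and 2 to 5 lower. Of 28 flowering regulators 5 rose and 2 fell, with 3 or 4 higher when 1 library was left out. CO, the photoperiod regulator gene, fell by 1.06 on the log2 scale, from 3.4, 3.17 and 3.71 CPM to 1.84, 1.33 and 1.76 CPM, and MFT, a seed germination regulator gene of another list, rose by 2.07 ± 0.21. Of 20 SR splicing factor genes 2 rose and 2 fell, and 1 or 2 in each direction in the leave-one-out fits.

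Pseudogenes with at least 10 reads numbered 205 to 212 in control and 240, 258 and 270 in stressed libraries of the line, and 202 to 211 in WT libraries. Their share of reads overlapped, at 0.149% to 0.156% in control and 0.153% to 0.158% in stressed libraries of the line, and 0.147% to 0.158% in WT. SK16, a SKP1-like gene, had 0, 0 and 2 reads in control and 28, 46 and 44 under stress in the line, and 0 in all WT libraries. EMB2271, annotated as a WD40 repeat gene, had 0 in control and 43, 25 and 37 reads under stress.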
